A study of Mus musculus with 4 samples.

Results

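Non-classical monocytes were examined in single-cell RNA profiles of mouse lungs that carried KP tumours, a lung cancer model driven by an activated oncogene together with loss of p53. The cells were chosen by their raw counts of unique molecular identifiers (UMIs, each standing for 1 captured RNA molecule). A cell had to carry at least 2 UMIs of Ace, Adgre4 and Treml4 together and at least 1 UMI of Csf1r. It could hold at most 1 UMI of the classical monocyte genes F13a1 and Vcan together, no UMI of the macrophage gene Gpnmb, at most 1 UMI of the T cell genes Cd3d, Cd3e and Cd3g together, and no UMI of the B cell gene Cd79a. This gate took 302 of 23730 cells that had at least 200 detected genes and at most 10% mitochondrial UMIs, which is 1.27% of them. Since Ace, Adgre4, Treml4 and Csf1r selected the cells, their levels are given as a description and were not tested. The cells are called gated cells here, because the check of the label described below held for only part of them.

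Each of the 4 libraries came from whole lungs of B6 mice that had received KP tumour cells through a vein. In the KO anti-PD-1 and KO IgG libraries the injected tumour cells lacked Asf1a, a histone chaperone gene; in the WT anti-PD-1 and WT IgG libraries they kept it. The host, and therefore its monocytes, was not a knockout in any group. Mice of the KO anti-PD-1 and WT anti-PD-1 groups were given an antibody against PD-1, an inhibitory receptor of T cells, at 200 µg per mouse and 3 doses a week for 1 week, and mice of the KO IgG and WT IgG groups were given an isotype control antibody. Lungs were perfused, digested with collagenase D and DNase I, and sorted for live cells by DAPI, so no gate on blood cell markers had been applied before sequencing. There was 1 library per group, and how many mice went into it is not stated. Differences between libraries therefore have no replicate check and no test, and intervals given for them cover counting error only.

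Monocytes of the mouse circulate as classical cells, which carry Ly6C and the chemokine receptor Ccr2 and enter inflamed tissue, and as non-classical cells, which carry little Ly6C and much Cx3cr1 and crawl along the inner wall of small vessels. Non-classical cells are thought to arise largely from classical ones in a step that needs the nuclear receptor Nr4a1 and the factor Cebpb in mice. In the lung they scavenge particles and dead cells from the vessel wall, and in mouse models they have been described as taking up tumour material and drawing in natural killer cells.

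The 4 libraries held 16078095 to 22506737 UMIs in all, with a median of 1247 to 2061 UMIs per cell kept; both KO libraries were the shallower ones, at 1355 UMIs in KO anti-PD-1 and 1247 UMIs in KO IgG, against 1905 UMIs in WT anti-PD-1 and 2061 UMIs in WT IgG. Gated cells were deeper and more alike, with medians of 3560, 3944 and 3486 UMIs in KO anti-PD-1, KO IgG and WT anti-PD-1 and 3349 UMIs in WT IgG. Together they gave 287355, 154034, 467873 and 257619 UMIs in KO anti-PD-1, KO IgG, WT anti-PD-1 and WT IgG. The deposited barcode table had as many barcodes as the WT IgG matrix has cells, so barcodes shared between libraries could not be counted. Asf1a itself had 5, 3, 7 and 5 UMIs in the gated cells of KO anti-PD-1, KO IgG, WT anti-PD-1 and WT IgG, which checks nothing about a knockout made in tumour cells.

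The genes of the gate were read in all 4 libraries. Levels are UMIs of a gene scaled to a common library total (CPM). Ace, the angiotensin-converting enzyme, had 508, 286 and 494 CPM in gated cells of KO anti-PD-1, KO IgG and WT anti-PD-1, and 435 CPM in WT IgG. Adgre4, an adhesion receptor, had 223, 312, 378 and 338 CPM, and Treml4, a receptor for dying cells, had 115, 90.9, 141 and 148 CPM, in the same library order. Csf1r, the receptor for the monocyte growth factor, had 574, 467, 586 and 668 CPM. Ace was the lowest in KO IgG, where 24 of 38 gated cells carried it, against 67 of 79 in KO anti-PD-1, 108 of 124 in WT anti-PD-1 and 49 of 61 in WT IgG.

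The label was checked by clustering all 3512 Csf1r-positive cells without the 11 genes of the gate. One cluster of 206 cells was led by Cd300e, Spn, Slc12a2, Ceacam1, Eno3, Pou2f2, Hpgd and Pglyrp1, and by its markers it is non-classical-monocyte-like. It held 147 of the 302 gated cells, or 48.7%. By library it held 27 of 79 gated cells in KO anti-PD-1 (34.2%), 8 of 38 in KO IgG (21.1%), 69 of 124 in WT anti-PD-1 (55.6%) and 43 of 61 in WT IgG (70.5%). The cluster was taken as the one that held the most gated cells, and it was named after its genes had been seen. Some of the genes it was built on, such as Spn, Pglyrp1 and Pou2f2, themselves differed between libraries. These shares therefore describe the make-up of the gate and are no comparison. At coarser and finer clustering the number inside was 142 and 149.

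The other 155 gated cells lay in clusters led by other genes. The largest group, 67 cells, sat in a cluster led by Igha, Iglc2, Jchain, Htra3, Hes1 and Batf3, which was left unnamed; 35 of them were from KO anti-PD-1, 19 from KO IgG, 11 from WT anti-PD-1 and 2 from WT IgG. A further 26 cells sat with the cluster led by Ly6c2, Ifitm6, Hp and Mmp8, genes of classical monocytes. Another 20 sat with a cluster led by the interferon-inducible genes Cxcl9, Cxcl10 and Gbp2. Small numbers fell into clusters led by neutrophil genes (7 cells) and by natural killer cell genes (6 cells). The label therefore held for about as many gated cells as it failed for, and results are given for all gated cells, with the values inside and outside the non-classical-monocyte-like cluster beside them where they part.

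The position of the threshold bears on this. Among cells that passed every other criterion, 216 had 1 UMI of Ace, Adgre4 and Treml4 together and fell just outside the gate, 124 had 2 UMIs and fell just inside it, and 74 had 5 or more. Of these, 13.4%, 33.1% and 73.0% lay in the non-classical-monocyte-like cluster. Spn had 42.2 CPM just outside the gate, 90.2 CPM just inside it and 254 CPM at 5 or more marker UMIs, and Pou2f2 had 85.4, 143 and 436 CPM at the same positions. C1qa, a complement gene of tissue macrophages, went the other way at the ends, with 910 CPM just outside, 388 CPM just inside and 78.6 CPM at 5 or more, though it stood at 795 CPM at 4 marker UMIs. Cells near the threshold thus carried less Spn and Pou2f2, and more C1qa, than cells with 5 or more marker UMIs.

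**Figure D1:**
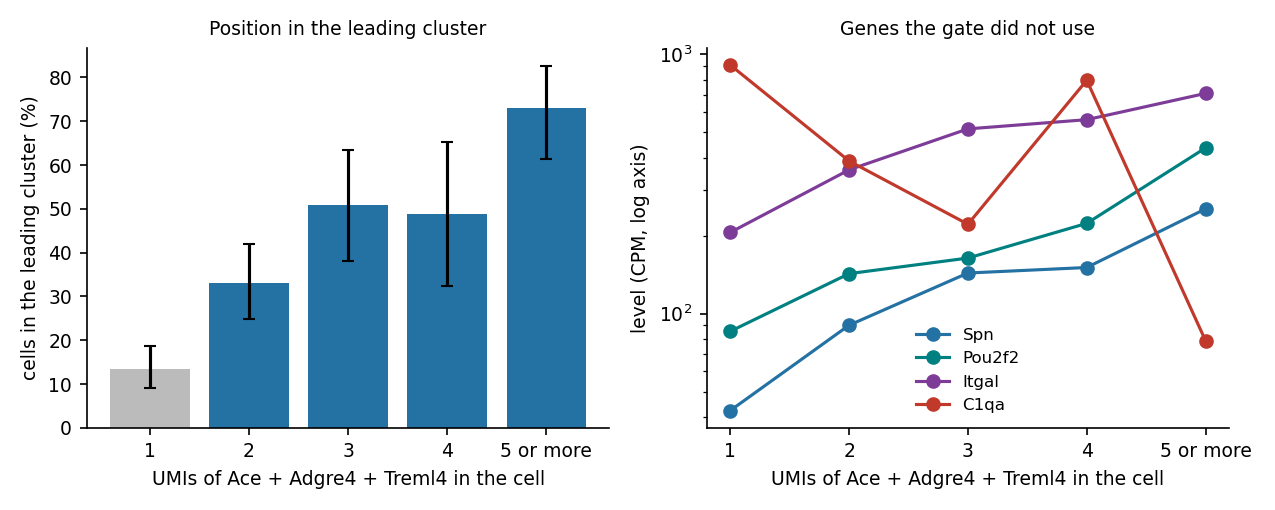
Left, share of cells that lay in the non-classical-monocyte-like cluster (percent, with exact 95% binomial intervals) by the number of Ace, Adgre4 and Treml4 UMIs per cell, with the grey bar for cells 1 UMI below the gate. Right, level of Spn, Pou2f2, Itgal and C1qa (CPM, log axis) in the same cells; the share was 13.4% at 1 UMI, 33.1% at 2 UMIs and 73.0% at 5 or more.

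Gated cells made up 1.39% of cells kept in KO anti-PD-1 (79 of 5677, exact 95% binomial interval 1.10 to 1.73), 0.631% in KO IgG (38 of 6023, 0.447 to 0.865), 1.97% in WT anti-PD-1 (124 of 6285, 1.64 to 2.35) and 1.06% in WT IgG (61 of 5745, 0.813 to 1.36). Both anti-PD-1 libraries had larger shares than the IgG library of the same tumour genotype. The ratio was 2.21 for KO anti-PD-1 over KO IgG (exact 95% interval for a ratio of 2 counts, 1.48 to 3.34) and 1.86 for WT anti-PD-1 over WT IgG (1.36 to 2.57). Both KO libraries had smaller shares than the WT library with the same antibody, with ratios of 0.594 for KO IgG over WT IgG (0.386 to 0.905) and 0.705 for KO anti-PD-1 over WT anti-PD-1 (0.525 to 0.943). The cells outside the non-classical-monocyte-like cluster did not share this order, with ratios of 1.59 for KO IgG over WT IgG (0.858 to 3.03) and 1.05 for KO anti-PD-1 over WT anti-PD-1 (0.703 to 1.56), both with intervals that take in 1. Gated cells of KO anti-PD-1 were 1.31 times those of WT IgG (0.927 to 1.86), an interval that takes in 1.

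Classical-type monocytes, defined as Csf1r-positive cells with at least 2 UMIs of F13a1 and Vcan together, none of Ace, Adgre4 and Treml4 and the same limits on Gpnmb and CD3 genes, served for comparison. There were 124, 105, 147 and 129 of them in KO anti-PD-1, KO IgG, WT anti-PD-1 and WT IgG, or 2.18%, 1.74%, 2.34% and 2.25% of cells kept. Their ratios were 1.25 for KO anti-PD-1 over KO IgG (0.958 to 1.64), 1.04 for WT anti-PD-1 over WT IgG (0.817 to 1.33), 0.776 for KO IgG over WT IgG (0.594 to 1.01) and 0.934 for KO anti-PD-1 over WT anti-PD-1 (0.729 to 1.19). All 4 intervals take in 1. Per classical-type monocyte there were 0.637 gated cells in KO anti-PD-1, 0.362 in KO IgG, 0.844 in WT anti-PD-1 and 0.473 in WT IgG.

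Depth differed along with the KO against WT comparison, as both KO libraries were shallower per cell kept. By the median over all gated cells, those of the KO libraries were not shallower than those of the WT libraries. Outside the non-classical-monocyte-like cluster they were, with 3899, 4139.5, 5158 and 6371 UMIs in KO anti-PD-1, KO IgG, WT anti-PD-1 and WT IgG. Inside it the medians were 2694, 2445, 2206 and 2410 UMIs in the same library order. All Csf1r-positive cells had 3945, 4224.5, 5254.5 and 6051.5 UMIs. The gate needs at least 3 UMIs, and the part of depth in the ratios was not tested beyond the settings below. Among cells with at least 1000 UMIs, the ratio of shares was 0.855 for KO IgG over WT IgG (0.554 to 1.31) and 0.975 for KO anti-PD-1 over WT anti-PD-1 (0.724 to 1.31), and both intervals then took in 1. That setting still held 78, 38, 120 and 60 gated cells of KO anti-PD-1, KO IgG, WT anti-PD-1 and WT IgG, so few gated cells were dropped. With each library thinned to the mean depth of the shallowest, 2756 UMIs per cell kept, the gate took 79, 33, 94 and 48 cells of KO anti-PD-1, KO IgG, WT anti-PD-1 and WT IgG. The ratios were then 0.656 for KO IgG over WT IgG (0.408 to 1.04) and 0.930 for KO anti-PD-1 over WT anti-PD-1 (0.681 to 1.27). Taken over Csf1r-positive cells, KO IgG over WT IgG was 0.577 (0.374 to 0.879), and over classical-type monocytes 0.765 (0.497 to 1.17). Gated cells were 8.70% of Csf1r-positive cells in KO anti-PD-1 and 13.1% in WT anti-PD-1. The anti-PD-1 over IgG ratios stayed at 1.58 to 1.96 in WT and 1.76 to 2.72 in KO under the alternatives set out for processing, and each of their intervals lay above 1. Counted only inside the non-classical-monocyte-like cluster, the WT ratio was 1.47 with an interval of 0.988 to 2.20, which takes in 1, and outside it the ratio was 2.79 (1.61 to 5.05; 55 cells of WT anti-PD-1 and 18 of WT IgG). The KO ratio was 3.58 inside the cluster (1.58 to 9.12) and 1.84 outside it (1.15 to 2.99). The gate took 8 of the 21 cells of that cluster in KO IgG. It took 27 of 36 in KO anti-PD-1, 69 of 93 in WT anti-PD-1 and 43 of 56 in WT IgG. Over all cells of the cluster, gated or not, the KO ratio was 1.82 (1.03 to 3.28) and the WT ratio 1.52 (1.08 to 2.15). KO IgG over WT IgG was then 0.358 (0.206 to 0.600).

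**Figure D2:**
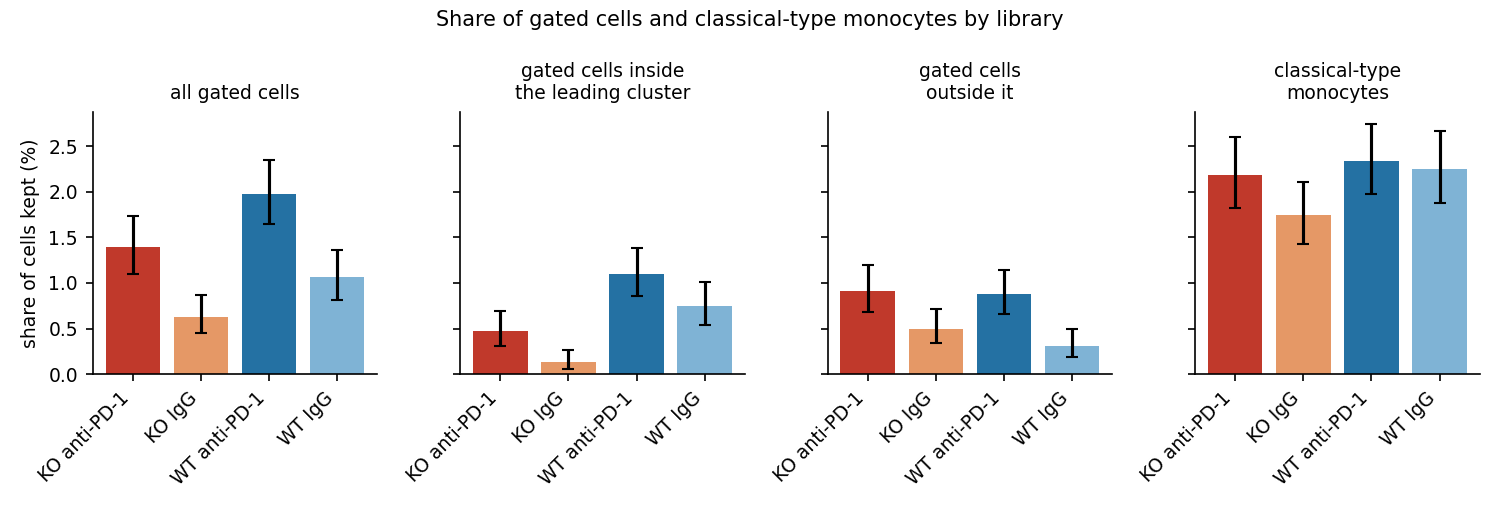
Share of cells kept (percent) in KO anti-PD-1, KO IgG, WT anti-PD-1 and WT IgG for all gated cells, gated cells inside the non-classical-monocyte-like cluster, gated cells outside it and classical-type monocytes. Bars are 1 library each and error bars are exact 95% binomial intervals; gated cells stood at 1.39%, 0.631%, 1.97% and 1.06%, and classical-type monocytes at 1.74% to 2.34%.

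To ask which genes set gated cells apart from classical-type monocytes, UMIs were summed per population and library and compared with edgeR's quasi-likelihood test, with library as a block, so that 4 libraries carried the comparison. Genes had to pass an adjusted p of 0.05 and move the same way in all 4 libraries to be called. Of 4828 genes tested, 326 were called higher in gated cells (6.75%) and 308 were called lower (6.38%). Surface and secreted genes known for non-classical monocytes rose in gated cells: all 20 that were tested of 23 listed were called higher, with a median log2 fold change of 1.78, beside 0.01 over all genes tested. The gate was set on genes of the same cell state, so this direction is not independent of it.

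Spn, which encodes CD43, the surface sialoprotein by which non-classical monocytes are often sorted, had 122, 45.4, 182 and 182 CPM in gated cells of KO anti-PD-1, KO IgG, WT anti-PD-1 and WT IgG, against 5.66, 11.8, 24.1 and 19.1 CPM in classical-type monocytes. Gated cells were higher in each library and the populations did not overlap, with a log2 fold change of 3.12 ± 0.25 (SE, n = 4 libraries, edgeR adjusted p = 3.15e-08). Spn was lowest in KO IgG, where 7 of 38 gated cells carried it. Within the gate it had 336 CPM inside the non-classical-monocyte-like cluster and 54.3 CPM outside it.

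Cd36, a scavenger receptor that takes up lipids and dead cells, had 94.0, 38.9, 122 and 206 CPM in gated cells of KO anti-PD-1, KO IgG, WT anti-PD-1 and WT IgG, against 1.89, 7.88, 4.60 and 10.1 CPM in classical-type monocytes (log2 fold change 4.27 ± 0.30, edgeR adjusted p = 6.89e-09). Its fold change was among the 3 greatest named here, and in KO IgG 1 cell held 66.7% of its UMIs. Fabp4, a carrier of fatty acids, had 115, 58.4, 113 and 97.0 CPM in gated cells against 0, 1.97, 1.15 and 2.24 CPM in classical-type monocytes, in the same library order (5.89 ± 0.39, edgeR adjusted p = 3.19e-09). Ear2, a secreted ribonuclease, was more even over the libraries at 442, 558, 517 and 594 CPM in gated cells, against 67.9, 59.1, 39.1 and 47.1 CPM (3.37 ± 0.15, edgeR adjusted p = 1.61e-11).

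Fcgr4, an activating receptor for IgG, had 174, 71.4, 182 and 252 CPM in gated cells of KO anti-PD-1, KO IgG, WT anti-PD-1 and WT IgG, against 109, 59.1, 123 and 128 CPM in classical-type monocytes. The difference was small (log2 fold change 0.70 ± 0.14, edgeR adjusted p = 0.0018), and the call was lost with DESeq2 (adjusted p = 0.0863) and without the library block (edgeR adjusted p = 0.0954). Cx3cr1, the receptor for fractalkine on vessel walls, had 66.1, 97.4, 158 and 144 CPM against 39.6, 59.1, 57.4 and 96.4 CPM (0.95 ± 0.19, edgeR adjusted p = 0.00178). That call was lost without the WT anti-PD-1 library (edgeR adjusted p = 0.0746) and without the block (edgeR adjusted p = 0.0502). Gngt2, a G protein subunit (2.18 ± 0.09), Slc12a2, an ion cotransporter (5.61 ± 0.48), Pglyrp1, which binds bacterial peptidoglycan (2.94 ± 0.30), and Grk3, a kinase that dampens G protein-coupled receptors (2.84 ± 0.21), rose too.

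The promoters of Spn and Fcgr4 are shown because they are the surface genes most used to sort these cells. Both are RefSeq sequence of GRCm38.p6 and cover the 250 bases before the annotated start of the gene, read along the gene. Fcgr4 lies at chr1:171018676-171018925 on the plus strand and Spn at chr7:127137824-127138073 on the minus strand. Capitals mark a match to the PU.1 motif GAGGAAGT, here on the opposite strand and beginning 24 bases before the start of Fcgr4.
Fcgr4: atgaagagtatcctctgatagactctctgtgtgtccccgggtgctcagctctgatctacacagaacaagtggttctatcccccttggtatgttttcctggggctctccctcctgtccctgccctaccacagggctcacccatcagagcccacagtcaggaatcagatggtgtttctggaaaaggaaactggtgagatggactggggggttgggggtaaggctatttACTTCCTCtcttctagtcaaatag
Spn: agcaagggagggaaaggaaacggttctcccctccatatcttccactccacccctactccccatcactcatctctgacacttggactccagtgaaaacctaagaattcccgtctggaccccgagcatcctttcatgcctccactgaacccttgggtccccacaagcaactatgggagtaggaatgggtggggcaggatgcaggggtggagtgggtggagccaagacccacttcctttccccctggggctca
The motifs searched on both strands in these windows were the PU.1 motif GAGGAAGT, the Nr4a1 motif AAAGGTCA, the octamer ATGCAAAT that Pou2f2 binds, and the C/EBP palindrome TTGCGCAA. The PU.1 motif stood in 16 of the 247 promoters found for genes called higher (6.48%), in 8 of the 238 found for genes called lower (3.36%) and in 2.44% of 27025 RefSeq promoters. The Nr4a1 motif stood in 1.21%, 1.26% and 1.31% of the same sets, the octamer in 0.81%, 1.68% and 1.61%, and the C/EBP palindrome in 0.405%, 0.84% and 0.17%. A match is a run of letters in this window and is not a measured binding site. The RefSeq set takes in genes that were not tested here, and the shares over tested genes alone were not counted.

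Transcription factors known for the non-classical state were higher as well, by less. Of 12 listed, 11 were tested, 6 were called higher and 0 lower, with a median log2 fold change of 0.54. Pou2f2, the octamer-binding factor Oct-2, had 104, 110, 299 and 310 CPM in gated cells of KO anti-PD-1, KO IgG, WT anti-PD-1 and WT IgG, against 30.2, 35.5, 67.8 and 61.7 CPM in classical-type monocytes (2.10, edgeR adjusted p = 1.67e-08). Both KO libraries were low and both WT libraries high, in gated cells and in classical-type monocytes alike. Nr4a1, on which the survival of non-classical monocytes depends in mice, had 734, 584, 983 and 939 CPM against 449, 542, 572 and 536 CPM (0.65, edgeR adjusted p = 0.000266). Hes1, a target of Notch signals (2.16), Tcf7l2, a Wnt pathway factor (1.88), Nfkb1 (0.87) and Spi1, which encodes PU.1 (0.47), were also called. Cebpb was high in both populations, with 3849, 3454, 3450 and 3195 CPM in gated cells and 3463, 3371, 2965 and 2816 CPM in classical-type monocytes, and was not called (0.16, edgeR adjusted p = 0.102).

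Genes of classical monocytes fell in gated cells. Of the 20 listed outside the gate's own genes, 19 were tested, 16 were called lower and 2 higher, with a median log2 fold change of -1.45. Gated cells could hold at most 1 UMI of F13a1 and Vcan together, and classical-type monocytes had at least 2. The direction of these genes is therefore not independent of how both populations were chosen. Ly6c2, which encodes the Ly6C antigen, had 83.5, 38.9, 173 and 132 CPM in gated cells of KO anti-PD-1, KO IgG, WT anti-PD-1 and WT IgG, against 762, 461, 952 and 530 CPM in classical-type monocytes (-2.60 ± 0.16, edgeR adjusted p = 1.1e-09). Ccr2, the receptor that lets classical monocytes leave the marrow, had 404, 623, 472 and 365 CPM against 848, 1003, 1163 and 856 CPM (-1.07, edgeR adjusted p = 6.39e-07). The populations did not overlap for either gene, yet the gated cells kept a sizeable Ccr2 level, which was 249 CPM inside the non-classical-monocyte-like cluster and 554 CPM outside it. Plac8 (0.53) and Gpr141 (0.75) were the 2 classical-list genes called higher.

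**Figure D3:**
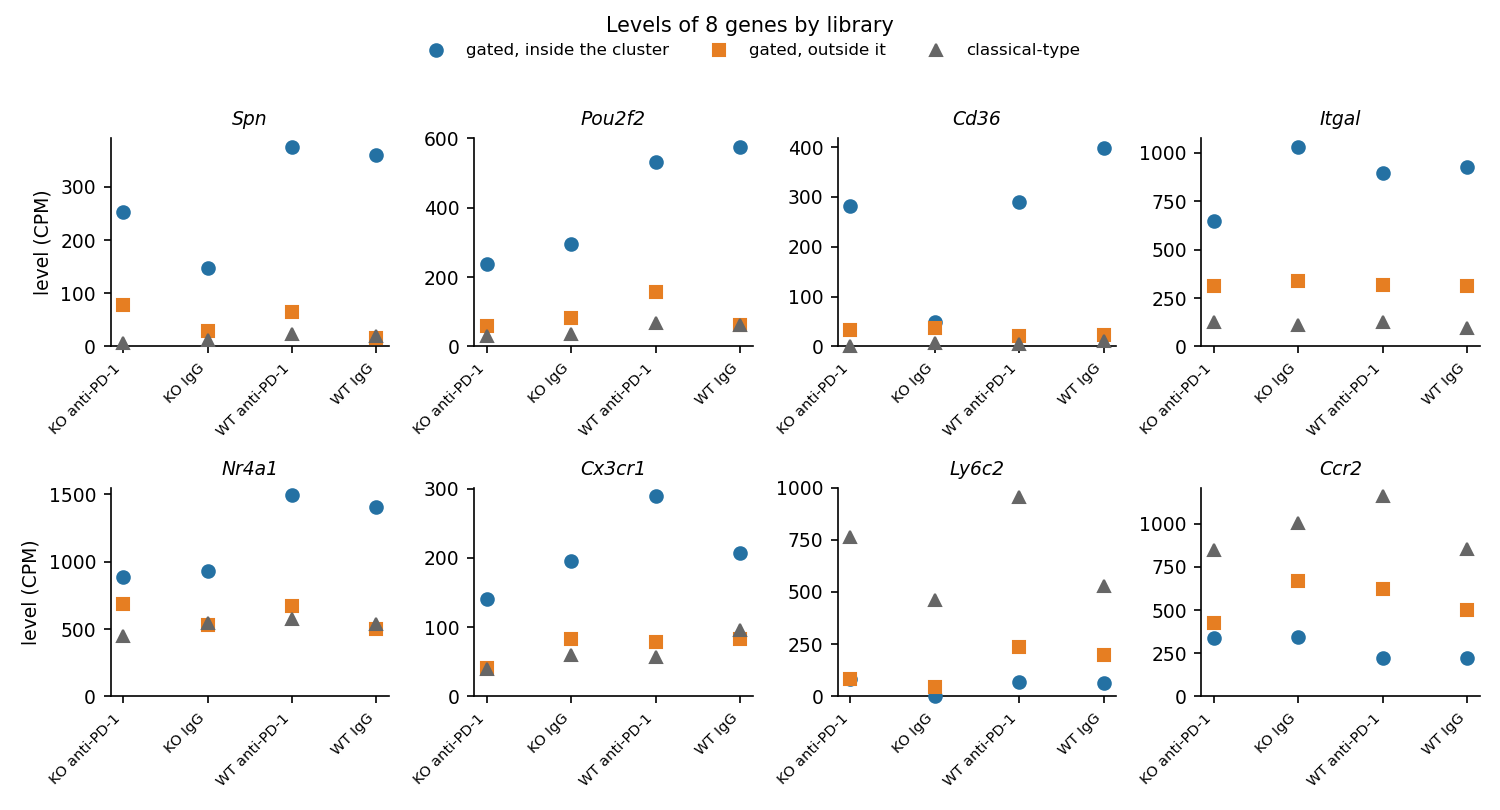
Level (CPM) of Spn, Pou2f2, Cd36, Itgal, Nr4a1, Cx3cr1, Ly6c2 and Ccr2 in KO anti-PD-1, KO IgG, WT anti-PD-1 and WT IgG, 1 point per library and population: gated cells inside the non-classical-monocyte-like cluster (circles), gated cells outside it (squares) and classical-type monocytes (triangles). Spn and Cd36 stand high inside the cluster, with pooled levels of 336 and 310 CPM, and Ly6c2 and Ccr2 stand highest in classical-type monocytes.

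Adhesion and signalling genes for contact with the vessel wall were mostly higher, with 13 of 19 tested called higher, 2 lower and a median of 0.71. Itgal, the alpha chain of the integrin LFA-1 with which these cells hold on to endothelium, had 397, 428, 536 and 609 CPM in gated cells of KO anti-PD-1, KO IgG, WT anti-PD-1 and WT IgG, against 128, 112, 125 and 97.6 CPM in classical-type monocytes (2.12 ± 0.14, edgeR adjusted p = 2.9e-09). Pecam1, an adhesion molecule of vessel walls and leukocytes, rose by 2.77 and Itgb2, the partner chain of LFA-1, by 0.52. Itgam (-0.58) and Cd44 (-0.42), an integrin chain and a hyaluronan receptor, fell. Among receptors for chemokines, growth factors and cytokines, 8 of 24 tested were called higher and 3 lower, with Tgfbr1 (1.5), Cxcr4 (1.28), Tnfrsf1b (1.08) and Il10ra (0.93) among the higher ones and Ccr1 (-1.41) and C5ar1 (-0.96) among the lower ones.

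Chemokine genes were lower in gated cells: 10 of 16 tested were called lower and 0 higher, with a median of -1.20. Ccl2, which draws in cells bearing Ccr2, had 62.6, 19.5, 44.9 and 34.9 CPM in gated cells of KO anti-PD-1, KO IgG, WT anti-PD-1 and WT IgG, against 1163, 1072, 460 and 943 CPM in classical-type monocytes (-4.22 ± 0.19, edgeR adjusted p = 1.61e-11). Ccl7, another Ccr2 ligand, had 13.9, 6.49, 6.41 and 0 CPM against 569, 481, 197 and 462 CPM (-5.75 ± 0.27, edgeR adjusted p = 1.85e-11), where the fitted fold change of a gene at 0 in 1 library depends on the fit. Pf4 (-4.12), Ccl12 (-3.06), Cxcl3 (-2.43), Cxcl10 (-2.16), Ccl9 (-1.45), Ccl3 (-1.18), Ccl6 (-1.13) and Cxcl2 (-0.89) made up the rest.

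Genes that remodel tissue and vessels followed, with 7 of 15 tested called lower and 1 higher at a median of -0.51. Spp1, which encodes osteopontin, had 55.7, 84.4, 53.4 and 81.5 CPM in gated cells of KO anti-PD-1, KO IgG, WT anti-PD-1 and WT IgG, against 771, 1930, 538 and 672 CPM in classical-type monocytes (-3.62 ± 0.16, edgeR adjusted p = 1.61e-11). Arg1, an enzyme that depletes arginine, had 45.2, 253, 53.4 and 31.1 CPM against 815, 1208, 674 and 2338 CPM (-3.85 ± 0.30, edgeR adjusted p = 2.91e-08). Of the 505 classical-type monocytes, 296 lay in the cluster led by Ly6c2 and 109 in one led by Arg1, Ccl24, Ccl7 and Ccl2, with 24 of these from KO anti-PD-1, 27 from KO IgG, 17 from WT anti-PD-1 and 41 from WT IgG. The classical-type levels of Arg1, Ccl7 and Ccl2 include those cells, and their part in the fold changes was not tested. Mmp8, a collagenase (-4.05), Timp1, an inhibitor of such enzymes (-3.04), and Vegfa, the vessel growth factor (-1.90), fell, and Serpinb2, a serine protease inhibitor, rose (2.19). Of 10 complement genes tested 6 were called, all of them lower, among them C3ar1, C3, C5ar1, Cfp and C1qa.

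**Figure D4:**
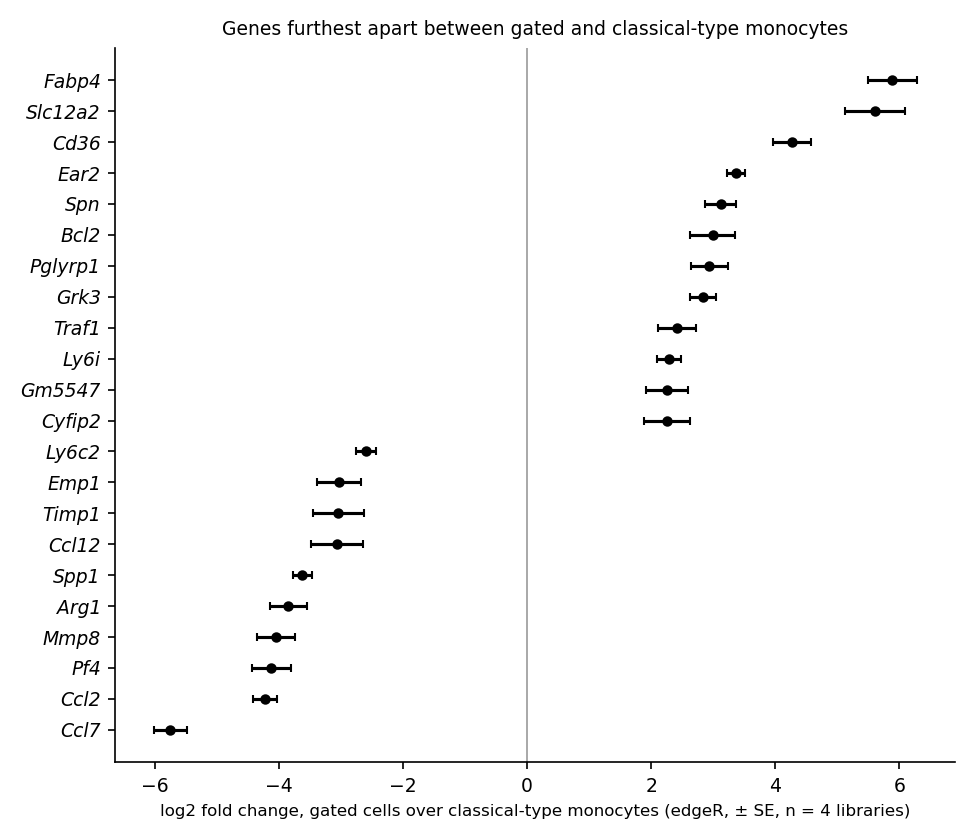
Log2 fold change, with its standard error, of gated cells over classical-type monocytes for 12 genes called higher and 10 called lower by edgeR (n = 4 libraries). Fabp4 stands at 5.89 at one end and Ccl7 at -5.75 at the other.

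Antigen presentation by MHC class II set the gated cells apart from classical-type monocytes, and its levels were highest in gated cells that lay outside the non-classical-monocyte-like cluster. Of 8 genes tested, 6 were called higher and 0 lower, with a median of 1.23; the 6 were H2-Aa, H2-Ab1, H2-Eb1, Ciita, Cd74 and H2-DMb1. H2-Aa, a class II chain, had 4538, 4454, 3161 and 3078 CPM in gated cells of KO anti-PD-1, KO IgG, WT anti-PD-1 and WT IgG, against 1616, 1066, 1616 and 1922 CPM in classical-type monocytes (1.30, edgeR adjusted p = 2.66e-06). Over all libraries H2-Aa had 1686 CPM in gated cells inside the cluster and 4652 CPM in those outside it, beside 1614 CPM in classical-type monocytes. Cd74, the chain that guides class II molecules, had 6198 and 14270 CPM in those 2 parts and 5525 CPM in classical-type monocytes. Inside the cluster H2-Aa had 3007, 834, 1542 and 1277 CPM in KO anti-PD-1, KO IgG, WT anti-PD-1 and WT IgG, above classical-type monocytes only in KO anti-PD-1. Cd74 inside it, at 11550, 4417, 5840 and 3951 CPM, was below classical-type monocytes only in WT IgG, where they had 6651 CPM. H2-Eb1 had 913 CPM inside the cluster and 1041 CPM in classical-type monocytes over all libraries. The median gated cell outside the cluster gave 2.93%, 2.39%, 1.5% and 1.51% of its UMIs to class II genes in KO anti-PD-1, KO IgG, WT anti-PD-1 and WT IgG, and the median cell inside it 1.45%, 0.205%, 0.221% and 0.145%. The median classical-type monocyte gave 0.117%, 0.0603%, 0.0971% and 0.119% in the same library order, below both parts of the gate in each library. Inside the cluster, KO anti-PD-1 stood apart from the other libraries.

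Of MHC class I genes, 5 of 18 were called higher, among them H2-K1 (0.79) and B2m (0.72), and Pdia3 was called lower (-0.36). Interferon-γ response genes gave 4 higher calls and 1 lower among 21 tested, at a median of 0.33: Ciita (1.29), Irf1 (1.00) and Ifngr1 (0.63) were among those that rose, and Cxcl10 fell. Type I interferon genes gave 0 higher calls and 1 lower, Ifitm3 (-0.26), among 16. Cd274, which encodes the PD-1 ligand PD-L1, had 34.8, 58.4, 62.0 and 58.2 CPM in gated cells of KO anti-PD-1, KO IgG, WT anti-PD-1 and WT IgG, against 13.2, 23.7, 25.3 and 25.8 CPM in classical-type monocytes (1.28 ± 0.26, edgeR adjusted p = 0.00152). Havcr2, which encodes the receptor TIM-3, rose with it (1.35), and Tnfsf9 (-1.84), Lgals9 (-0.88), Pirb (-0.64) and Vsir (-0.45) fell. Survival genes gave 5 higher calls of 12 tested. Bcl2, which holds off cell death, had 69.6, 51.9, 57.7 and 42.7 CPM against 5.66, 1.97, 6.89 and 10.1 CPM (2.99 ± 0.37, edgeR adjusted p = 9.02e-06); Pmaip1, Bcl2a1a, Bcl2a1d and Bcl2a1b rose too, though the Bcl2a1 copies are near-identical and their split is uncertain.

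The called genes were not spread evenly over the gate. Of the 326 genes called higher, 280 (85.9%) passed 1.5-fold over classical-type monocytes in the gated cells inside the non-classical-monocyte-like cluster and 175 (53.7%) in those outside it, with median log2 ratios of 1.18 and 0.63. Of the 308 called lower, 266 (86.4%) and 181 (58.8%) did so. The cluster was built on these genes, so this is a description. Markers of other cell types were read in the gate at levels that differed between libraries. Neutrophil markers summed to 3738, 5025, 4518 and 3265 CPM in gated cells of KO anti-PD-1, KO IgG, WT anti-PD-1 and WT IgG, beside 3994, 3313, 2277 and 2978 CPM in T lymphocytes, which should lack them; all 13 markers had a UMI. Tissue macrophage markers summed to 2213, 1740, 1120 and 2213 CPM, beside 772, 497, 337 and 238 CPM in lymphocytes, with all 11 read. Alveolar macrophage markers summed to 1061, 1597, 502 and 450 CPM with 8 of 10 read and Krt79 and Cidec at 0. B cell markers summed to 960 CPM, 1058 CPM, 1475 CPM and 1859 CPM in gated cells of the libraries in that order, beside 2599, 5047, 10550 and 4856 CPM in T lymphocytes, with 5 of 8 read and Pax5 and Ebf1 among those at 0. The part of these in the results was not tested.

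The first comparison between libraries asked how the loss of Asf1a in the tumour cells, under control IgG, went with the gated cells. With at least 50 UMIs over both libraries, 1130 genes were measured between KO IgG and WT IgG. Of these, 90 were at least 1.5-fold higher in KO IgG (7.96%) and 100 at least 1.5-fold lower (8.85%), with a median log2 ratio of 0.02. With TMM scaling, under which the median of all genes was -0.09, the split was 59 and 148. Among surface and secreted genes of non-classical monocytes 0 of 14 measured were higher and 6 were lower, at a median of -0.53. Cd36 had 38.9 CPM in KO IgG and 206 CPM in WT IgG (log2 ratio -2.40), Spn had 45.4 CPM in KO IgG and 182 CPM in WT IgG (-2.01, 95% interval -3.40 to -0.85), and Pglyrp1 had 104 CPM in KO IgG and 404 CPM in WT IgG (-1.96, -2.82 to -1.19). Fcgr4 (-1.82), Cd300ld (-1.67) and Clec4a1 (-0.93) were the others. The make-up of the gate differed too, as 8 of 38 gated cells of KO IgG and 43 of 61 of WT IgG lay in the non-classical-monocyte-like cluster. Its part in these ratios was not tested. Within that cluster the median of the list was -0.03 over the 10 genes that had enough UMIs there. Spn and Fcgr4 (4 UMIs in KO IgG and 38 in WT IgG) fell short of 50 UMIs and are not among them. The cluster was also built on genes of this list, such as Spn and Pglyrp1, so that median cannot decide the question. With at least 3 marker UMIs per cell the list median was -0.01. Inside the cluster, with 8 cells of KO IgG and 43 of WT IgG, Spn, Cd36 and Pglyrp1 read lower in KO IgG on few UMIs. Spn had 3 UMIs in KO IgG and 45 in WT IgG (147 and 359 CPM), and Cd36 had 1 and 50 (49.1 and 399 CPM). Pglyrp1 had 9 and 90 (442 and 718 CPM), a log2 ratio of -0.70 whose interval of -1.88 to 0.29 takes in 0. These genes were named for their low ratios over all gated cells, and whether the difference holds inside the cluster was not tested.

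Of 10 measured transcription factors of the non-classical state, 3 were lower in KO IgG and 0 higher. Pou2f2 had 110 CPM in KO IgG and 310 CPM in WT IgG (-1.49), Hes1 had 182 CPM in KO IgG and 423 CPM in WT IgG (-1.22), and Nr4a1 had 584 CPM in KO IgG and 939 CPM in WT IgG (-0.69). The median of this list was -0.16 over all gated cells, -0.59 inside the cluster and 0.06 with at least 3 marker UMIs per cell. Chemokine genes stood on the other side: all 6 measured were higher in KO IgG, at a median of 1.68. Cxcl2, which draws in neutrophils, had 2318 CPM in KO IgG and 571 CPM in WT IgG (2.02, 1.74 to 2.31), and Ccl4, an inflammatory chemokine, had 1688 CPM in KO IgG and 501 CPM in WT IgG (1.75, 1.44 to 2.07). Single cells carried much of it, since 1 cell held 43.9% of the Ccl4 UMIs in KO IgG and 1 cell held 54.4% of the Cxcl2 UMIs in WT IgG. Of the 357 Cxcl2 UMIs of KO IgG, 353 were in gated cells outside the non-classical-monocyte-like cluster, where Cxcl2 had 2641 CPM in KO IgG and 824 CPM in WT IgG; inside it the ratio was -0.63 (-2.58 to 0.85) on 4 UMIs in KO IgG and 38 in WT IgG. Ccl4 had ratios of 1.75 inside the cluster and 1.62 outside it. Both genes were also higher in classical-type monocytes of KO IgG, with Cxcl2 at 2427 CPM and 1646 CPM in WT IgG, and Ccl4 at 1358 and 728 CPM. Ccl6 had the opposite order there, at 3217 CPM in KO IgG and 3574 CPM in WT IgG. Ccl24 was 3.97 higher on the log2 scale with 122 UMIs in KO IgG and 13 in WT IgG, and 1 KO IgG cell held 96.7% of these 122 UMIs, all of which lay outside the cluster. Neutrophil markers were higher in the same comparison, 3 of 5 measured at a median of 1.21, and the part of such cells in it was not tested.

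Chil3, a lectin of alternatively activated and classical cells, had 1448 CPM in KO IgG and 419 CPM in WT IgG (1.79), and Fabp5 (1.36), Clec4n (1.48), Naaa (1.52) and Fcgr2b, the inhibitory IgG receptor (1.23), were higher too. In classical-type monocytes Chil3 was likewise higher in KO IgG, at 3428 CPM against 1392 CPM in WT IgG, while Fabp5 was not, at 329 and 353 CPM. MHC class II genes gave 3 of 7 higher in KO IgG and 0 lower at a median of 0.57, with H2-Ab1 at 5986 CPM in KO IgG and 3622 CPM in WT IgG (0.72), while the median within the non-classical-monocyte-like cluster was 0.05. C1qa (-1.31) and C1qb (-1.44) were lower in KO IgG, but they were read in few cells: 4 of 38 gated cells of KO IgG and 5 of 61 of WT IgG carried C1qa. Over all libraries C1qa had 9 UMIs inside the non-classical-monocyte-like cluster and 384 outside it, C1qb 19 and 654, and C1qc 5 and 315. Within the gate, the C1q values of all 4 comparisons therefore describe almost wholly the cells outside it. Classical-type monocytes had 556, 312, 326 and 870 CPM of C1qa in KO anti-PD-1, KO IgG, WT anti-PD-1 and WT IgG. This is the same direction as in gated cells in each of the 4 comparisons. Of MHC class I genes 3 of 10 were lower and 0 higher, among them B2m (-0.66).

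The second comparison asked how anti-PD-1 went with the gated cells where the tumours kept Asf1a. Between WT anti-PD-1 and WT IgG 1958 genes were measured, of which 130 were higher in WT anti-PD-1 (6.64%) and 88 lower (4.49%). Summed over all gated cells, the lists of non-classical genes differed little at their medians. The make-up of the gate was not alike, as 69 of 124 gated cells of WT anti-PD-1 and 43 of 61 of WT IgG lay in the non-classical-monocyte-like cluster. Of 21 surface and secreted genes 1 was higher and 2 were lower at a median of 0.04, and of 11 transcription factors 1 was higher and 0 lower at a median of 0.11. Spn had 182 CPM in WT anti-PD-1 and 182 CPM in WT IgG, Pou2f2 had 299 CPM in WT anti-PD-1 and 310 CPM in WT IgG, and Nr4a1 had 983 CPM in WT anti-PD-1 and 939 CPM in WT IgG. The genes that passed were Stap1, a signalling adaptor (0.83), Notch2, the receptor whose signal drives these cells in mice (0.75), Cd36 (-0.76) and Cd300ld (-0.69).

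Tppp3, a microtubule-binding protein, had 430 CPM in WT anti-PD-1 and 190 CPM in WT IgG (1.18, 0.72 to 1.66). Among checkpoint and costimulation genes Cd86, which costimulates T cells, had 51 UMIs in WT anti-PD-1 and 11 in WT IgG (1.35, 0.39 to 2.44) and was the one of 6 measured that passed. Tapbp, which loads peptides on class I molecules, was higher by 0.93, and 2 of 14 class I genes were higher; no class II gene of 7 passed either way. Retnlg (1.25) and S100a9 (1.01) are neutrophil genes, and 1 cell held 70.5% of the Retnlg UMIs in WT anti-PD-1 and 1 cell 72.7% in WT IgG. Ccl5 (1.00) and AW112010 (0.98) lay below the level read in T lymphocytes of both libraries, which express Ccl5 themselves. Of 6 complement genes 4 were lower, with C1qa at 201 CPM in WT anti-PD-1 and 532 CPM in WT IgG (-1.40), C1qc at 150 CPM and 365 CPM (-1.29) and C1qb at 359 CPM and 846 CPM (-1.24), in the same order. They were carried by 12 of 124 gated cells in WT anti-PD-1 and 5 of 61 in WT IgG in the case of C1qa, where 1 WT IgG cell held 51.1% of its UMIs. The median of the complement list was -1.14 over summed UMIs and -0.32 when each cell was weighted equally.

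The third comparison asked the same of anti-PD-1 where the tumours lacked Asf1a. Between KO anti-PD-1 and KO IgG 1166 genes were measured, of which 79 were higher in KO anti-PD-1 (6.78%) and 96 lower (8.23%); with TMM scaling, under which the median of all genes was 0.19, the split was 143 and 50. KO IgG had the fewest gated cells, 38, of which 8 lay in the non-classical-monocyte-like cluster. Of 10 surface and secreted genes 2 were higher and 0 lower at a median of 0.03. Fcgr4 had 174 CPM in KO anti-PD-1 and 71.4 CPM in KO IgG (1.28), and Pglyrp1 had 202 CPM in KO anti-PD-1 and 104 CPM in KO IgG (0.96). Klf4, a factor of monocyte differentiation, had 317 CPM in KO anti-PD-1 and 169 CPM in KO IgG (0.91), and Hes1 had 292 CPM in KO anti-PD-1 and 182 CPM in KO IgG (0.69). Pou2f2 hardly differed, with 104 CPM in KO anti-PD-1 and 110 CPM in KO IgG.

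Chemokines were the group with the greatest spread between these libraries: 4 of 7 were lower in KO anti-PD-1 and 1 higher, at a median of -1.44, which became -0.09 when the cell with the most UMIs of each gene was left out. Cxcl2 had 626 CPM in KO anti-PD-1 and 2318 CPM in KO IgG (-1.89, -2.15 to -1.63), and Ccl4 had 619 CPM in KO anti-PD-1 and 1688 CPM in KO IgG (-1.45). Classical-type monocytes had the same order, with Cxcl2 at 1484 and 2427 CPM and Ccl4 at 748.5 and 1358 CPM. Ccl5 was the higher one with 372 CPM in KO anti-PD-1 and 45.4 CPM in KO IgG (3.03, 1.94 to 4.38), and in T lymphocytes, whose RNA holds much of it, Ccl5 had 8316 CPM in KO anti-PD-1 and 3133 CPM in KO IgG; the part of free RNA in its level in gated cells was not tested. The neutrophil genes S100a8 (-2.17) and S100a9 (-1.98) were lower in KO anti-PD-1, as were 4 of 5 neutrophil markers measured. S100a8 lay under the level in T lymphocytes in both libraries, with 306 CPM in gated cells and 1786 CPM in T lymphocytes of KO anti-PD-1, and 1376 CPM and 1470 CPM in KO IgG. In KO IgG 1 gated cell held 51.4% of its UMIs, and the part of free RNA was not tested. Immediate-early genes gave 4 of 13 lower and 0 higher, with Jun (-1.86), Atf3 (-1.73), Fos (-0.64) and Zfp36 (-0.63). The transcript Gm42418, which shares sequence with ribosomal RNA, was lower by 2.77 in KO anti-PD-1; T lymphocytes showed the same order, with 308 CPM in KO anti-PD-1 and 1853 CPM in KO IgG.

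Complement genes were higher in KO anti-PD-1, 3 of 4 measured. C1qa had 449 CPM in KO anti-PD-1 and 214 CPM in KO IgG (1.07), and C1qb had 832 CPM in KO anti-PD-1 and 312 CPM in KO IgG (1.42). C1qa was carried by 21 of 79 gated cells in KO anti-PD-1 and by 4 of 38 in KO IgG, where 1 cell held 87.9% of it. No MHC class II gene of 7 passed over all gated cells, at a median of 0.01. Inside the non-classical-monocyte-like cluster, with 27 cells in KO anti-PD-1 and 8 in KO IgG, 4 of 5 measured were higher at a median of 1.62: H2-Ab1 had 3934 CPM in KO anti-PD-1 and 1276 CPM in KO IgG there, and Cd74 had 11550 CPM in KO anti-PD-1 and 4417 CPM in KO IgG. Scgb1a1, a secretory protein of airway epithelium, had 74 UMIs in KO anti-PD-1 and 1 in KO IgG (log2 ratio 5.31); epithelial markers in T lymphocytes summed to 8211 CPM in KO anti-PD-1 and 249 CPM in KO IgG.

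The last comparison asked how the loss of Asf1a went with the gated cells under anti-PD-1. Between KO anti-PD-1 and WT anti-PD-1 1970 genes were measured, of which 104 were higher in KO anti-PD-1 (5.28%) and 261 lower (13.2%), at a median of -0.02. Non-classical genes were again on the lower side. Of 20 surface and secreted genes 0 were higher and 6 lower at a median of -0.32: Stap1 (-1.44), Pglyrp1 (-1.38), Cx3cr1 (-1.26), Eno3 (-0.92), Dusp16 (-0.88) and Stk10 (-0.80). Cx3cr1 had 66.1 CPM in KO anti-PD-1 and 158 CPM in WT anti-PD-1, and was carried by 12 of 79 and 48 of 124 gated cells in the same order. Of 11 transcription factors 3 were lower and 0 higher at a median of -0.37. Pou2f2 had 104 CPM in KO anti-PD-1 and 299 CPM in WT anti-PD-1 (-1.52, -2.14 to -0.94), with 22 of 79 and 68 of 124 gated cells carrying it, and Notch2 (-1.28) and Irf8 (-0.81) were lower with it. Inside the non-classical-monocyte-like cluster, with 27 cells of KO anti-PD-1 and 69 of WT anti-PD-1, the median was -0.47 for the surface and secreted genes and -0.67 for the transcription factors.

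Interferon-γ response genes gave 4 of 12 lower and 0 higher in KO anti-PD-1 at a median of -0.34, among them Tapbp, lower by 0.73; inside the cluster the median was 0.39, on the other side. Ly6i, a member of the Ly6 family, had 90.5 CPM in KO anti-PD-1 and 278 CPM in WT anti-PD-1 (-1.62), and Ptgs2, which makes prostaglandins, had 62.6 CPM in KO anti-PD-1 and 190 CPM in WT anti-PD-1 (-1.60). Of 16 adhesion genes 3 were lower and 0 higher, among them Itgb1 (-1.08) and Rasgrp2 (-0.59). S100a8 (-1.70), S100a9 (-1.77) and G0s2 (-1.75), which neutrophils express strongly, were lower too, and S100a8 again lay under the level in T lymphocytes of both libraries.

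MHC class II and complement genes stood on the higher side. Of 7 class II genes 2 passed, H2-Ab1 with 6031 CPM in KO anti-PD-1 and 3881 CPM in WT anti-PD-1 (0.64) and H2-DMb1 (0.59), at a median of 0.52; inside the non-classical-monocyte-like cluster 5 of 6 passed at a median of 0.87. Of 6 complement genes 4 were higher, with C1qc at 414 CPM in KO anti-PD-1 and 150 CPM in WT anti-PD-1 (1.47), C1qb higher by 1.21 and C1qa by 1.16. Chil3 had 1044 CPM in KO anti-PD-1 and 479 CPM in WT anti-PD-1 (1.12), Ctsd, a lysosomal protease, was higher by 1.39, and Axl, a receptor for dying cells, by 1.51. In classical-type monocytes Chil3 had the same order, at 4812 CPM in KO anti-PD-1 and 1514 CPM in WT anti-PD-1. Slpi (1.20) rested on 1 KO anti-PD-1 cell that held 69.2% of its UMIs. Gm10076 (1.29) and Gm42418 (-3.44) differed in the same direction in T lymphocytes and lay under the T lymphocyte level.

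**Figure D5:**
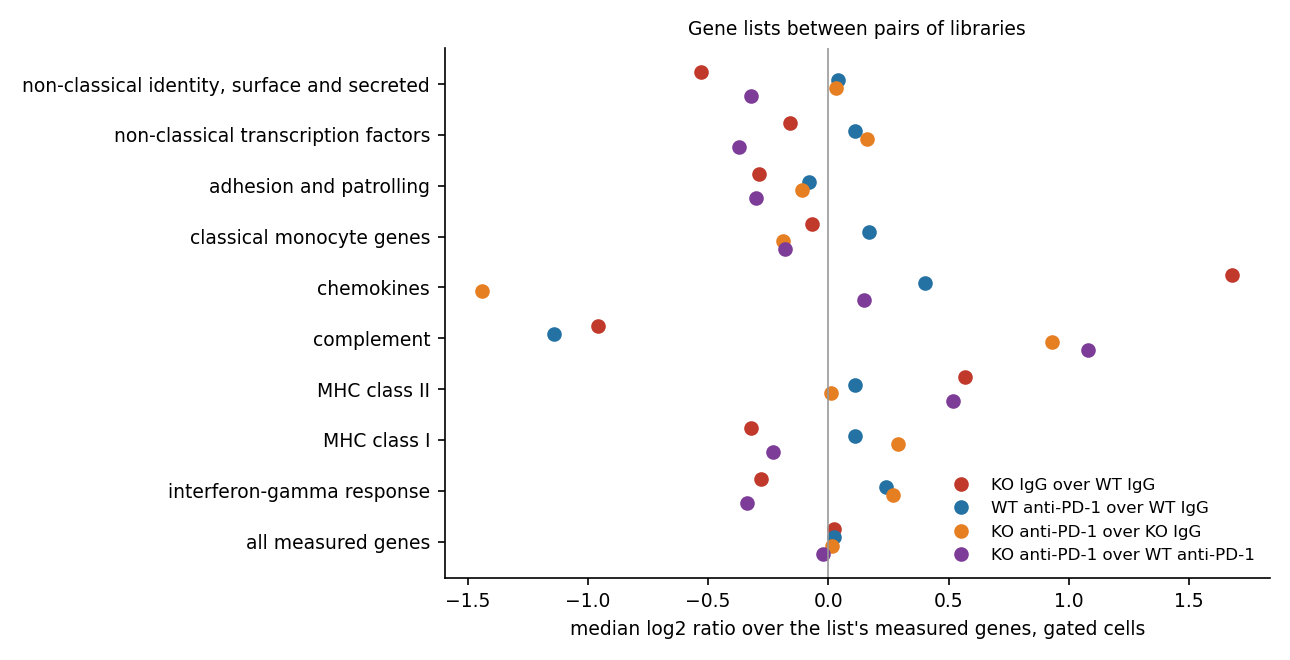
Median log2 ratio of 9 gene lists and of all measured genes in gated cells, with 1 colour for each comparison: KO IgG over WT IgG, WT anti-PD-1 over WT IgG, KO anti-PD-1 over KO IgG and KO anti-PD-1 over WT anti-PD-1. Chemokines lie at 1.68 and -1.44 in the 2 comparisons that share the KO IgG library, and surface and secreted non-classical genes lie at -0.53, 0.04, 0.03 and -0.32 in the order given.

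The 4 comparisons share libraries in pairs, so that a library that stands apart enters 2 of them with opposite sign; KO IgG, with its 38 gated cells and high chemokine levels, is the upper library in one and the lower in another. Of the genes followed in every library, Pou2f2, Spn, Nr4a1, Fcgr4, Cx3cr1, Itgal, Cd36 and Ly6c2 were each lower in KO anti-PD-1 and in KO IgG than in WT anti-PD-1 and in WT IgG, and Cebpb, Cd274 and Ccr2 were not. The share of gated cells inside the non-classical-monocyte-like cluster had the same order, and its part in these levels was not tested. Ccr2 was highest in KO IgG at 623 CPM, above 404 CPM in KO anti-PD-1, 472 CPM in WT anti-PD-1 and 365 CPM in WT IgG. Cd274 was lowest in KO anti-PD-1, where 9 of 79 gated cells carried it.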

How the data were processed

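The deposited matrices hold UMI counts per gene and cell barcode, and their headers give Cell Ranger 3.0.0, and the whole numbers with unequal totals show that the authors had not normalised them. The lowest barcode had 500 UMIs. Per the submitters' processing notes, reads passed through bcl2fastq and the build was hg19, while the 31053 features carry mouse identifiers, so the build is not established and no coordinates come from the matrices; promoter windows are RefSeq's. No columns of other samples were present.

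The gate was applied to raw counts. The 2 gated cells with a Scrublet score above 0.25 (scanpy 1.11.5, expected rate 0.05) were kept. Csf1r-positive cells were clustered on 2000 variable genes, 30 principal components and 15 neighbours at resolution 1 (igraph 0.11.9), without the 11 genes of the gate. Summed counts per population and library were tested with edgeR 4.0.16 in R 4.3.3 (TMM, filterByExpr, library as block, Benjamini-Hochberg over all genes), with DESeq2 1.42.0 as an alternative; the steps were tested on simulated data. Between libraries, ratios of CPM carry exact conditional Poisson 95% intervals, shares carry Clopper-Pearson intervals, and both used scipy 1.17.1 in Python 3.11.15. UMIs remove PCR copies, yet cells of 1 library are not independent samples, so these intervals cover counting error only.

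Named genes were, for gated cells against classical-type monocytes, the 12 called with the greatest and the 12 with the smallest fold change at 50 CPM or more in the higher population; for each pair of libraries, the 8 at either end with at least 100 UMIs; the 3 per list that differed most; and 12 genes followed in every library; some genes these rules took are not reported here. Others, such as Scgb1a1, were named after their values had been seen. T lymphocytes for comparison had at least 3 CD3 UMIs and no UMI of Csf1r, Ace, Adgre4 or Treml4. Mx2 and Ifi30 of the lists were not found among the features. Members and lists were chosen with earlier results of these data known. Alternatives covered scaling, depth, the gate's threshold, filters on low counts, the weight of single cells and each library left out.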

Additional observations from a re-analysis of the deposited data

Results flagged for a closer look

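Among the genes named by the rules above, the anti-PD-1 over IgG ratio in gated cells passed 1.5-fold in opposite directions in KO and in WT for 10. Some of the named genes had been picked because their ratios in these comparisons were extreme. How many of all measured genes show such opposite ratios was not counted, so these 10 have no background share to be set against. With 1 library per group, the difference between the ratios was not tested. The complement genes had positive ratios in KO and negative ones in WT: the KO minus WT difference of the log2 ratios was 2.47 for C1qa (1.07 in KO and -1.40 in WT), 2.65 for C1qb (1.42 in KO and -1.24 in WT) and 2.07 for C1qc (0.79 in KO and -1.29 in WT). These genes had 9, 19 and 5 UMIs inside the non-classical-monocyte-like cluster and 384, 654 and 315 outside it. Within the gate the differences therefore belong almost wholly to the cells outside it. They are not particular to gated cells, as classical-type monocytes had the same directions. There C1qa had 556 CPM in KO anti-PD-1 and 312 CPM in KO IgG, against 326 CPM in WT anti-PD-1 and 870 CPM in WT IgG. C1qb had 635, 382, 426 and 1026 CPM and C1qc 419, 191, 233 and 575 CPM in the same library order. Slpi, a protease inhibitor, followed at 2.03 (1.28 in KO and -0.75 in WT), with 69.2% of its UMIs in KO anti-PD-1 and 53.1% in WT IgG held by 1 cell each. The neutrophil genes went the other way. The difference was -2.99 for S100a9 (-1.98 in KO and 1.01 in WT) and -2.91 for S100a8 (-2.17 in KO and 0.74 in WT). For Retnlg it was -2.76 (-1.51 in KO and 1.25 in WT). S100a8 lay under the level in T lymphocytes in all 4 libraries. In WT anti-PD-1 the top cell of each gene held 58.0% of the S100a8 UMIs, 48.4% of S100a9 and 70.5% of Retnlg. The top cell held 50% of S100a9 in KO IgG and 72.7% of Retnlg in WT IgG. The chemokine Cxcl2 had a difference of -2.61 (-1.89 in KO and 0.73 in WT), the lipid amidase Naaa -1.49 (-0.81 in KO and 0.67 in WT) and the fatty acid carrier Fabp5 -1.36 (-0.69 in KO and 0.67 in WT). In KO IgG 1 gated cell held 87.9% of the C1qa UMIs and 1 held 51.4% of the S100a8 UMIs; the part of single cells in these differences was not tested beyond the values without the top cell.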

How the results depend on the processing

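No paired analysis was possible because each group has 1 library; this concerns the comparisons between libraries, while gated cells and classical-type monocytes were paired by library. The share ratio of KO IgG over WT IgG was 0.594 and became 0.355 with at least 3 marker UMIs. Of gated cells inside the non-classical-monocyte-like cluster, at 3 clustering resolutions, it was 0.177, 0.186 and 0.173; that of KO anti-PD-1 over KO IgG was 3.58 at each; that of KO anti-PD-1 over WT anti-PD-1 was 0.433, 0.453 and 0.427, beside 0.705 for all gated cells and 0.975 in cells of at least 1000 UMIs. That of WT anti-PD-1 over WT IgG inside the cluster had an interval of 0.988 to 2.20. Over all cells of the cluster, gated or not, the ratio was 0.358 for KO IgG over WT IgG. It was 1.82 for KO anti-PD-1 over KO IgG, 0.429 for KO anti-PD-1 over WT anti-PD-1 and 1.52 for WT anti-PD-1 over WT IgG. The clusters were chosen as an alternative after seeing the data. Counts of genes past 1.5-fold moved most with the minimum number of UMIs. For KO IgG over WT IgG, 90 higher became 343 at 20 UMIs, 39 at 100 UMIs, 59 with TMM, 137 with cells weighted equally and 50 inside the cluster, and 100 lower became 381, 35 and 64 at 20 UMIs, at 100 UMIs and inside the cluster. For WT anti-PD-1 over WT IgG, 130 higher became 493, 36, 216 and 51 at 20 UMIs, at 100 UMIs, without the top cell and inside the cluster, and 88 lower became 401, 27, 52 and 39, and 58 with at least 3 marker UMIs. For KO anti-PD-1 over KO IgG, 79 higher became 342, 26, 123 and 32 in that order, 143 with TMM, 141 with median-of-ratios scaling and 50 with 3 marker UMIs; 96 lower became 411 at 20 UMIs, 31 at 100 UMIs, 19 inside the cluster, 50 with TMM, 51 with median-of-ratios scaling and 52 with 3 marker UMIs. For KO anti-PD-1 over WT anti-PD-1, 104 higher became 382 at 20 UMIs, 42 at 100 UMIs and 163 with cells weighted equally, and 261 lower became 840, 95, 163 and 81 at 20 UMIs, at 100 UMIs, with 3 marker UMIs and inside the cluster. Between gated cells and classical-type monocytes DESeq2 called 168 higher and 150 lower, and leaving out a library gave 240 to 306 higher and 228 to 301 lower. With 3 marker UMIs Fcgr4 (0.80, edgeR adjusted p = 0.00298) and Cx3cr1 (0.87, edgeR adjusted p = 0.0145) lost their calls because their direction was not shared by all 4 libraries. Some log2 ratios turned round: S100a9 in WT anti-PD-1 over WT IgG inside the cluster (-0.73), Tgm2 in the same comparison with 3 marker UMIs (0.04), and, in KO anti-PD-1 over WT anti-PD-1, Slpi without the top cell (-0.27), Retnlg without the top cell (0.14) and S100a8 inside the cluster (0.93). Of list medians 652 stayed and 29 moved; of single-gene ratios 528 stayed within their counting interval and 64 moved. The cause of these moves was not tested. KO IgG, with 38 gated cells and 154034 UMIs, has the least depth behind its values.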
